A study of Mus musculus with 3 samples.

Results

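Endogenous Utf1 was mapped in mouse embryonic stem cells, and the regions described here are the 861 listed peaks on chromosomes 1 to 19 that hold 21 to 100 sequence tags. They were chosen by their tag count alone, and are 8.96% of the 9612 endogenous peaks on these chromosomes. The other peaks are 8601 with 13 to 20 tags, the smallest counts listed, and 150 with over 100 tags. The 861 peaks hold 33401 tags and cover 895 kb.

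Utf1 (undifferentiated embryonic cell transcription factor 1) binds DNA and chromatin in pluripotent cells. In mouse embryonic stem cells it is known to bind widely, to occupy many promoters that carry both active and repressive histone marks, and to limit the loading of Polycomb repressive complex 2, which deposits the repressive mark. A precipitation of the unmodified protein with an antibody and one of a tagged copy are a common pair of maps, because each has a different background.

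The study used KH2 cells, an established mouse embryonic stem cell line, grown in 15% serum with LIF on feeder fibroblasts. There was 1 library each for endogenous Utf1, for biotin-tagged Utf1 and for whole-cell extract, which was not precipitated. Chromatin was crosslinked for 5 min in 1% formaldehyde. The labels name the same Utf1 antibody for both precipitations, while streptavidin beads are given in the protocol for the biotin one, so the 2 peak lists are called endogenous and biotin after their tag labels. The biotin list holds 149498 peaks on chromosomes 1 to 19. The whole-cell extract was not analysed here, and library depth is unknown, because only tags inside peaks are listed. Coordinates are mm9, 1-based.

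The peaks of 21 to 100 tags were wider than those of 13 to 20 tags and had their summits nearer the middle. They were 927 bp wide at the median (interquartile range 817 to 1146, extremes 378 and 3355), and the peaks of 13 to 20 tags were 594 bp wide (575 to 632). The summit lay between 40 and 60% of the way along the peak in 426 of 861 peaks of 21 to 100 tags (49.5%), and in 2710 of 8601 peaks of 13 to 20 tags (31.5%). In the weaker peaks the summit sat mostly at a fixed distance from an edge: 61.8% had it 160 to 230 bp from the nearer edge, and 14.8% of the peaks of 21 to 100 tags did. Tag density was less different, at 29.1 tags per kb (26.2 to 40.5) in peaks of 21 to 100 tags and 23.1 tags per kb (22.2 to 24.3) in those of 13 to 20. Width, summit, fold and false discovery rate come from the same library as the tag count that chose the peaks, so these values describe them and test nothing.

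Many tags did not mean strong listed enrichment. The fold enrichment, the authors' own linear ratio for each peak, had a median of 1.73 (1.21 to 2.19) in peaks of 21 to 100 tags and of 1.57 (1.37 to 1.76) in peaks of 13 to 20 tags. Both ends of the fold scale were more frequent at the higher tag range: 118 of 861 peaks of 21 to 100 tags (13.7%) had a fold of 3 or more, and 6 of 8601 peaks of 13 to 20 tags (0.0698%). A fold under 1 was listed for 114 peaks of 21 to 100 tags (13.2%) and for 158 peaks of 13 to 20 tags (1.84%). The listed false discovery rate had a median of 1.34% at 21 to 100 tags and of 1.52% at 13 to 20 tags. It was over 5% in 55 of the 861 peaks and at or under 0.5% in 0 of them. Good support is therefore not a property of all 861, and they are called here by their tag range.

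At the lower limit of the range, peaks inside and outside it had similar values, and at the upper limit they were similar in width but not in median fold. The 97 peaks of exactly 21 tags had a median width of 808 bp and a median fold of 1.83, and the 148 peaks of exactly 20 tags had 791.5 bp and 1.82. At the upper limit, the 40 peaks of 90 to 100 tags had a median width of 1035.5 bp and a median fold of 2.305 (0.97 to 3.44). The 20 peaks just above 100 tags had 1066.5 bp and 1.54 (0.995 to 3.43).

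**Figure D1:**
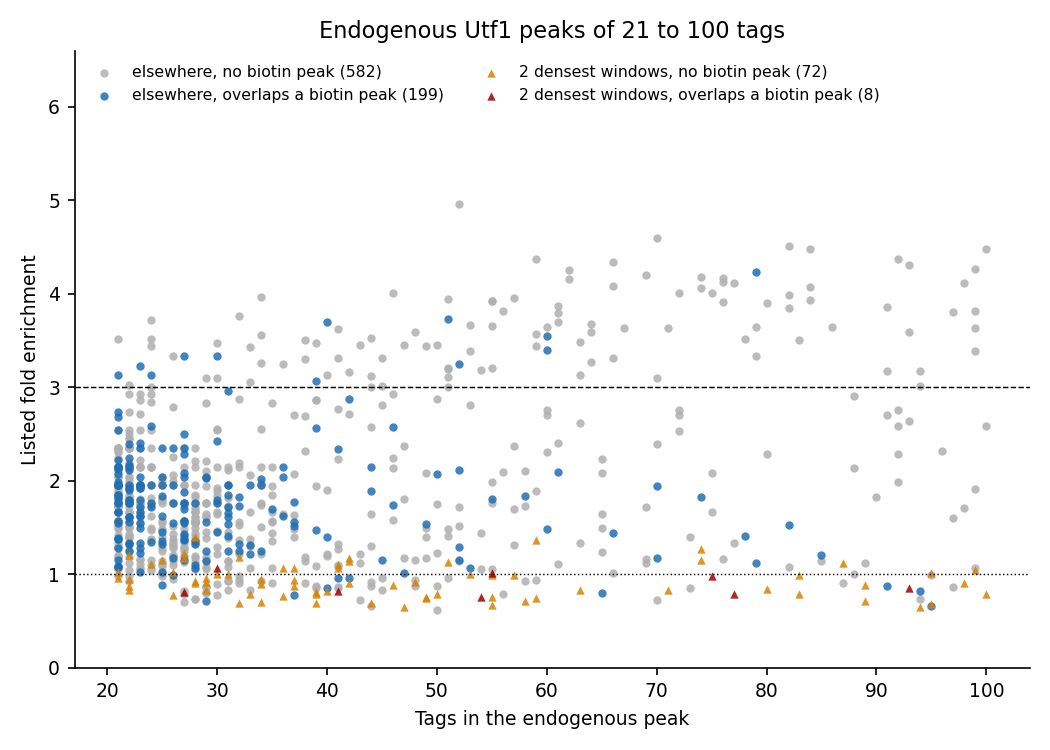
Listed fold enrichment (vertical axis) against tags (horizontal axis) for the 861 endogenous peaks of 21 to 100 tags, 1 point per peak, with colour for overlap with a biotin peak and triangles for the 2 windows of 1 Mb that hold the most such peaks. The triangles lie at folds of 0.65 to 1.40, and the 118 points on or above the dashed line at a fold of 3 are mostly grey, with 12 overlapping a biotin peak.

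In the full lists, peaks of 21 to 100 tags lay on biotin peaks more often than weaker peaks did, and about 2.1 times as often as the same peaks moved along the chromosome. Of the 861 peaks, 207 overlapped a biotin peak by at least 1 bp, which is 24.0% (exact 95% interval 21.2 to 27.0). Over all endogenous peaks of chromosomes 1 to 19 the share was 18.7%, and over the 8601 peaks of 13 to 20 tags it was 18.2% (17.39 to 19.03). The difference between the tag ranges was 5.85 percentage points (Newcombe 95% interval 2.99 to 8.92). Moving each peak by 10, 20, 50 and 100 kb to either side left 92 to 104 of the 861 on a biotin peak, with a mean of 98.4 over the 8 placements, so the ratio was 2.10. For peaks of 13 to 20 tags the same placements gave 592 to 746, and the ratio was 2.37. Against shifted positions, then, the wider peaks of 21 to 100 tags had no larger ratio than the weaker ones. With a window of 600 bp around every summit, which makes all peaks equally wide, the difference became 2.79 points (0.0913 to 5.73). Its interval included 0 under 4 other settings: 0.631 points (−2.96 to 4.78) with 31 to 100 tags, 2.01 (−0.275 to 4.59) with the stronger 50% of biotin peaks, −0.0722 (−0.957 to 1.20) with the 9612 strongest, and −2.56 (−7.82 to 3.18) at a fold of at least 2. Among peaks over 700 and up to 900 bp wide it was 2.69 points (−2.72 to 8.53). Peaks of 1 library are not replicates, so no p-value is given, and all intervals cover counting error only.

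Overlap did not go on increasing with tags. It was 16.7% at 13 tags, 18.2% at 14 to 15, 21.5% at 16 to 20, 28.8% at 21 to 30, 22.4% at 31 to 50, 15.1% at 51 to 100 and 17.3% at over 100 tags. At 21 to 30 tags, 130 of 452 peaks overlapped a biotin peak, against 41 to 53 after shifting, a ratio of 2.80. At 31 to 50 tags, 47 of 210 did, against 26 to 33, a ratio of 1.61. At 51 to 100 tags, 30 of 199 did, against 18 to 30, so the count stood at the top of the shifted range. The peaks of 51 to 100 tags overlapped less often than those of 21 to 30 tags by 13.7 points (interval of the difference −19.8 to −6.79). Most of the excess over shifted positions thus came from the lower end of the tag range.

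**Figure D2:**
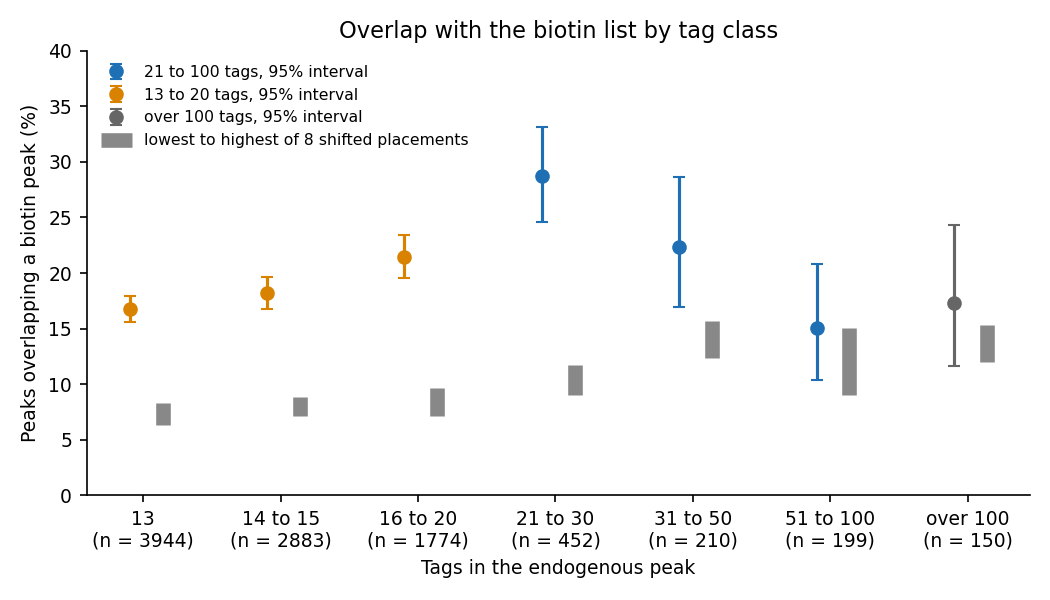
Share of endogenous peaks that overlap a biotin peak (vertical axis, percent) by tags in the endogenous peak (horizontal axis), as points with exact 95% intervals, beside grey bars from the lowest to the highest of 8 shifted placements. The share is highest, 28.8%, at 21 to 30 tags, and at 51 to 100 tags the 15.1% lies on the upper edge of its grey bar.

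Listed fold divided the peaks further, with overlap highest at intermediate folds and low at both ends. Among peaks of 21 to 100 tags, a biotin peak was overlapped by 17 of 114 with a fold under 1 (14.9%), 55 of 209 with 1 to under 1.5 (26.3%), 82 of 250 with 1.5 to under 2 (32.8%), 41 of 170 with 2 to under 3 (24.1%) and 12 of 118 with 3 or more (10.2%). After shifting, the first of these classes gave 9 to 19 overlapping peaks, the class of 1.5 to under 2 gave 19 to 28 and the last gave 10 to 18. By overlap, only the classes from 1 to under 3 stood above their shifted ranges. The low share at a fold under 1 did not hold throughout. At such folds, 4 of 30 peaks of 21 to 30 tags and 5 of 49 of 31 to 50 tags overlapped. At 51 to 100 tags 8 of 35 did (22.9%), against 1 to 6 after shifting. At 13 to 20 tags 33 of 158 did (20.9%), against 9 to 22. At a fold of 1.5 to under 2 the share was 32.8% in peaks of 21 to 100 tags and 15.6% in 4764 peaks of 13 to 20 tags, a difference of 17.2 points (11.6 to 23.4). No other fold class had a difference with an interval above 0. It was −5.97 points (−14.8 to 3.53) at a fold under 1 and 4.74 (−0.966 to 11.25) at 1 to under 1.5. At 2 to under 3 it was 3.44 points (−3.28 to 11.02). At 3 or more it was −39.8 points (−71.4 to −7.87), with only 6 peaks of 13 to 20 tags. The fold classes were drawn after the values had been seen.

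**Figure D3:**
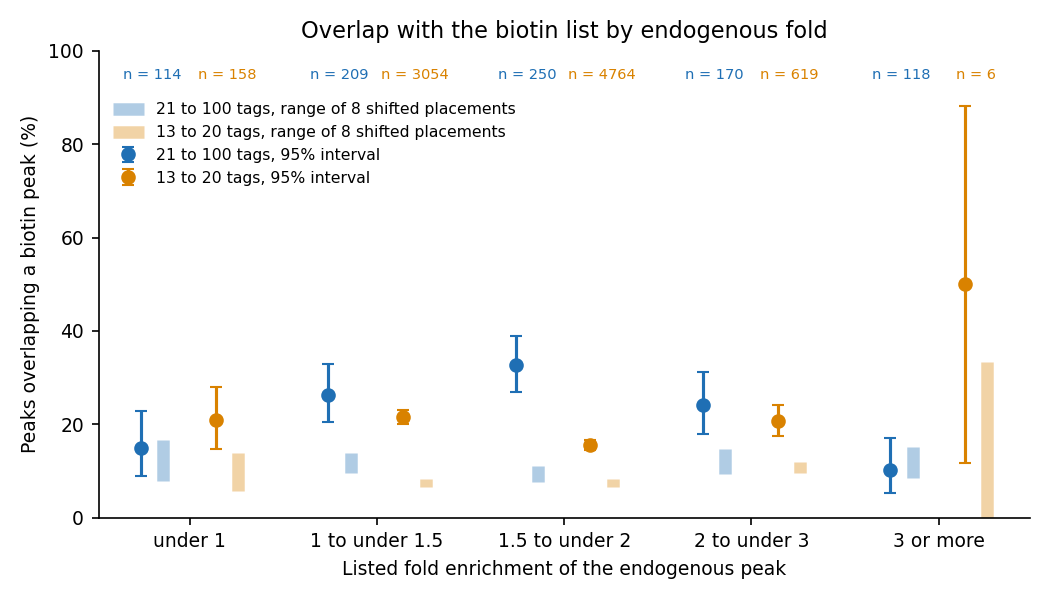
Share of endogenous peaks that overlap a biotin peak (vertical axis, percent) by listed fold enrichment (horizontal axis), for peaks of 21 to 100 tags (blue) and 13 to 20 tags (orange), as points with exact 95% intervals beside bars that span 8 shifted placements. The blue points stand above their bars at folds of 1 to under 3, and within or at the edge of them under 1 and at 3 or more, where the orange point rests on 6 peaks.

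The 118 peaks with a fold of 3 or more were scattered, and few of them overlapped a biotin peak. They lay on all 19 chromosomes, at most 12 on one, chromosome 10. Of the 118, 76 held 51 to 100 tags. The median width of the 118 was 858.5 bp (761.5 to 990.0), close to the 867.5 bp (760.2 to 959.8) at a fold of 2 to under 3. Another endogenous peak lay within 10 kb of 6 of the 118, against 3 to 10 after shifting, and the nearest one was 154 kb away at the median. Their share on biotin peaks was lower than that of the 743 peaks with a fold under 3, by 16.1 points (10.2% and 26.2%, interval of the difference −21.5 to −8.66). A deficit against shifted positions was not detectable, since 12 overlapped and shifting gave 10 to 18. By summits the 118 stood above their shifted range. A biotin summit lay within 250 bp of 7 of the 118 (5.93%), against 2 to 4 after shifting, a ratio of 2.24. Among the 743 peaks with a fold under 3, 49 had one (6.595%), against 15 to 25 after shifting, a ratio of 2.76. At 51 to 100 tags and a fold of 3 or more, 5 of 76 overlapped (6.58%, 2.17 to 14.7), against 5 to 11 after shifting.

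The largest fold belonged to the peak at chr6:60636856-60637825, with a fold of 4.96, 52 tags (exact Poisson 95% interval 38.8 to 68.2) and the nearest biotin peak 2.32 kb away. The next were chr10:13121405-13122499, with 4.60 and 70 tags, and chr10:114173915-114174878, with 4.51 and 82 tags. On chromosome 5, peaks at 46826468 to 46827536 and at 80929501 to 80930492 shared a fold of 4.48. None of these 5 overlapped a biotin peak, and their distances ran from 2.32 to 62.1 kb. The peak at 80929501 was also among the 3 with 100 tags. The other peaks of 100 tags were unlike it: chr4:145852583-145855413 had a fold of 0.79 over 2831 bp, and chr8:75843107-75843985 a fold of 2.59 over 879 bp. With 99 tags, chr1:102635293-102635705 had a fold of 1.91 over 413 bp, and chr2:41751325-41752189 a fold of 3.39 over 865 bp. The 3 peaks of 100 tags thus covered folds of 0.79 to 4.48 and widths of 879 to 2831 bp.

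At the other end, the 114 peaks with a fold under 1 were broad, with a median width of 1273.5 bp, and crowded into few places. Chromosome 4 held 58 of them, chromosome 8 held 17 and chromosome 7 held 11. The smallest fold, 0.62 with 50 tags, was listed at chr4:144996104-144997665. The next 3 were also on chromosome 4, at 145174677, 146829000 and 147006598, with folds of 0.65, 0.65 and 0.66. The next after these, chr8:71995467-71997425, had 95 tags and a fold of 0.66 and was the only one of the 5 on a biotin peak, which had a fold of 2.84. The widest of all 861 peaks, chr4:146123203-146126557, had a fold of 0.68 over 3355 bp, and the narrowest, chr17:51463938-51464315, a fold of 1.89 over 378 bp.

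Chromosome 4 owed its many peaks of 21 to 100 tags to a single stretch. It held 130 of the 861, or 0.835 per Mb, while the other autosomes had 0.172 (chromosome 11) to 0.515 (chromosome 13) per Mb. Peaks of 21 to 100 tags were 19.1% (16.2 to 22.2) of its peaks of 13 to 100 tags, against 9.10% (8.53 to 9.70) over all autosomes. The adjoining windows of 145 to 146 and 146 to 147 Mb held 35 and 45 of them. Without these windows, chromosome 4 stood at 8.61% and 0.321 per Mb. Outside chromosome 4 the share ran from 5.70% on chromosome 6 (4.04 to 7.77) to 12.8% on chromosome 13 (9.96 to 16.1), and on chromosome 8 it was 12.7% (9.78 to 16.03).

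**Figure D4:**
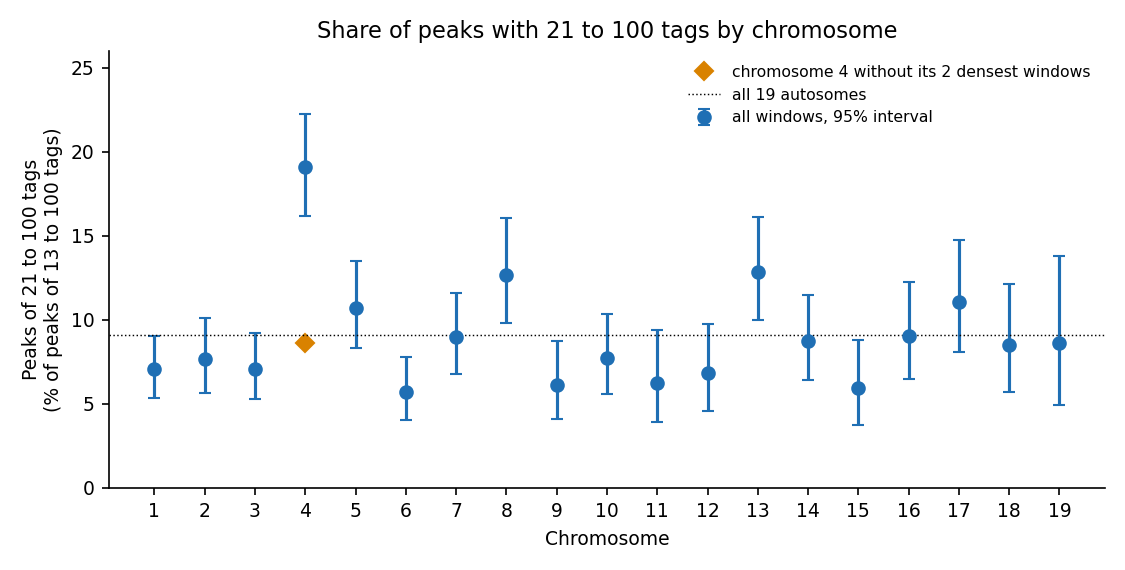
Peaks of 21 to 100 tags as a share of the endogenous peaks of 13 to 100 tags (vertical axis, percent) by chromosome (horizontal axis), with exact 95% intervals. Chromosome 4 stands at 19.1%, and the diamond shows it at 8.61% without its 2 densest windows of 1 Mb. The dotted line at 9.10% is for all 19 autosomes and includes those windows.

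The 2 windows on chromosome 4 held 124 endogenous peaks, of which 80 had 21 to 100 tags, 21 had 13 to 20 and 23 had over 100. The 80 peaks spread over 1.94 Mb, from 145019379 to 146959311, with a median of 17.1 kb between neighbouring starts. Their median fold was 0.91, their median width 1386 bp and their median tag count 41.5, and 53 of the 80 had a fold under 1. A biotin peak was overlapped by 8 of the 80 (95% interval of the share 4.42 to 18.8%), against 1 to 10 after shifting. The next windows were chromosome 17 at 3 to 4 Mb, with 13 peaks at a median fold of 1.41, and chromosome 7 at 71 to 72 Mb, with 12 at a median of 0.965.

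Clustering beyond those stretches was moderate. The 861 peaks fell into 564 of 2482 windows of 1 Mb, and 450 of these windows held a single one. The 10 fullest windows held 157 peaks of 21 to 100 tags (18.2%), of which 80 lay in the 2 windows on chromosome 4. The 10 fullest by peaks of 13 to 20 tags held 169 of 8601 (1.97%). The variance of the window counts over their mean was 5.68 for peaks of 21 to 100 tags and 2.37 for peaks of 13 to 20 tags, and without the 2 windows on chromosome 4 it was 2.16 and 2.37. The mean was 0.347 and 3.465 peaks per window, and both the quotient and the share in the 10 fullest windows depend on it. Similar quotients therefore do not show equal clustering of the 2 tag ranges. Another endogenous peak lay within 10 kb of 315 of the 861 peaks (36.6%, 33.4 to 39.9) and of 1876 of the 8601 weaker peaks (21.8%, 20.9 to 22.7), a difference of 14.8 points (11.5 to 18.2). Shifted positions gave 18.6 to 32.2% for peaks of 21 to 100 tags and 10.1 to 17.0% for peaks of 13 to 20 tags. The shifted means were 24.6 and 12.7%, so the ratio to them was 1.49 and 1.72, no larger at 21 to 100 tags. Without the 2 windows the difference in share was 10.5 points (7.19 to 13.96), and the ratios were 1.69 and 1.73.

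Chained at gaps of up to 10 kb, 167 of the 861 peaks (19.4%) formed 32 pairs and 26 longer runs, and 694 stood alone. The longest run, chr17:3004947-3038980, held 13 peaks in 34.0 kb, with 22 to 78 tags and folds of 0.87 to 2.09, and 5 of them overlapped a biotin peak. The next, chr7:71613074-71635408, held 9 peaks with folds of 0.74 to 1.10, and none overlapped one. By position along the chromosome, the first 10% of the length held 127 peaks of 21 to 100 tags (14.8%) and 12.4% of the peaks of 13 to 20 tags. The last 10% held 184 (21.4%) and 8.22%. With the 2 windows on chromosome 4 left out, the first 10% held 16.3% of the peaks of 21 to 100 tags and 12.4% of those of 13 to 20. The last 10% then held 104 peaks of 21 to 100 tags (13.3%), and 7.995% of the peaks of 13 to 20 tags.

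The nearest biotin peak was 4.24 kb away at the median for peaks of 21 to 100 tags (95% interval of the median 3.37 to 5.49) and 3.53 kb for peaks of 13 to 20 tags (3.34 to 3.69). Shifted positions gave medians of 7.99 to 10.7 kb and of 8.75 to 13.2 kb. By tags the median was 2.40 kb at 21 to 30, 5.72 kb at 31 to 50 and 7.28 kb at 51 to 100, where shifting gave 6.80 to 10.7 kb. Peaks of 51 to 100 tags were thus about as far from biotin peaks as their shifted positions. More than 50 kb separated 68 of the 861 peaks (7.90%) from any biotin peak, and 9.09% of the peaks of 13 to 20 tags. The farthest was chr11:39124698-39125672, 250.4 kb away, with 30 tags and a fold of 3.10. It was followed by chr4:79650553-79651274 at 241 kb and by 3 peaks on chromosome 10, at 102130862, 123113065 and 103628555, at 232, 178 and 172 kb.

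Within 800 bp of the summits of peaks of 21 to 30 tags, biotin summits mostly stood above all shifted placements, by bins of 200 bp. The exception was the bin at 200 to 400 bp, with 0.885 per 100 peaks against 0.885 to 1.549 after shifting. Farther out, the bins at −1000 to −800 bp and −2400 to −2200 bp also stood above all shifted placements. At 51 to 100 tags the 2 bins of 200 bp nearest the summit stood above all shifted placements. A few scattered bins farther out did so too. The highest bin was at 1200 to 1400 bp, with 7 biotin summits or 3.52 per 100 peaks, against at most 2.51 after shifting. Within 400 bp of the endogenous summit there were 2.21 biotin summits per 200 bp and 100 peaks at 21 to 30 tags, 2.35 times the shifted mean, and at 400 to 800 bp there were 3.21, 3.41 times it. At 31 to 50 tags the ratios were 2.16 and 1.30, and at 51 to 100 tags 1.18 and 0.750, the last resting on 9 and 6 biotin summits. Within 250 bp, however, 9 of 199 peaks of 51 to 100 tags had a biotin summit, against 1 to 8 after shifting, a ratio of 2.40. At 21 to 30 tags 30 of 452 had one, against 5 to 15 (2.89), and at 31 to 50 tags 17 of 210, against 5 to 9 (2.52). Peaks of 13 to 20 tags had ratios of 2.16 within 400 bp, 2.72 at 400 to 800 bp and 1.43 still at 2 to 4 kb, where peaks of 21 to 100 tags had 1.03. A summit within 250 bp was found for 56 of the 861 peaks (6.50%, 4.95 to 8.36) and for 390 of the peaks of 13 to 20 tags (4.53%), against 4.80% of all endogenous peaks of chromosomes 1 to 19. Shifting left 17 to 28 of the 861.

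**Figure D5:**
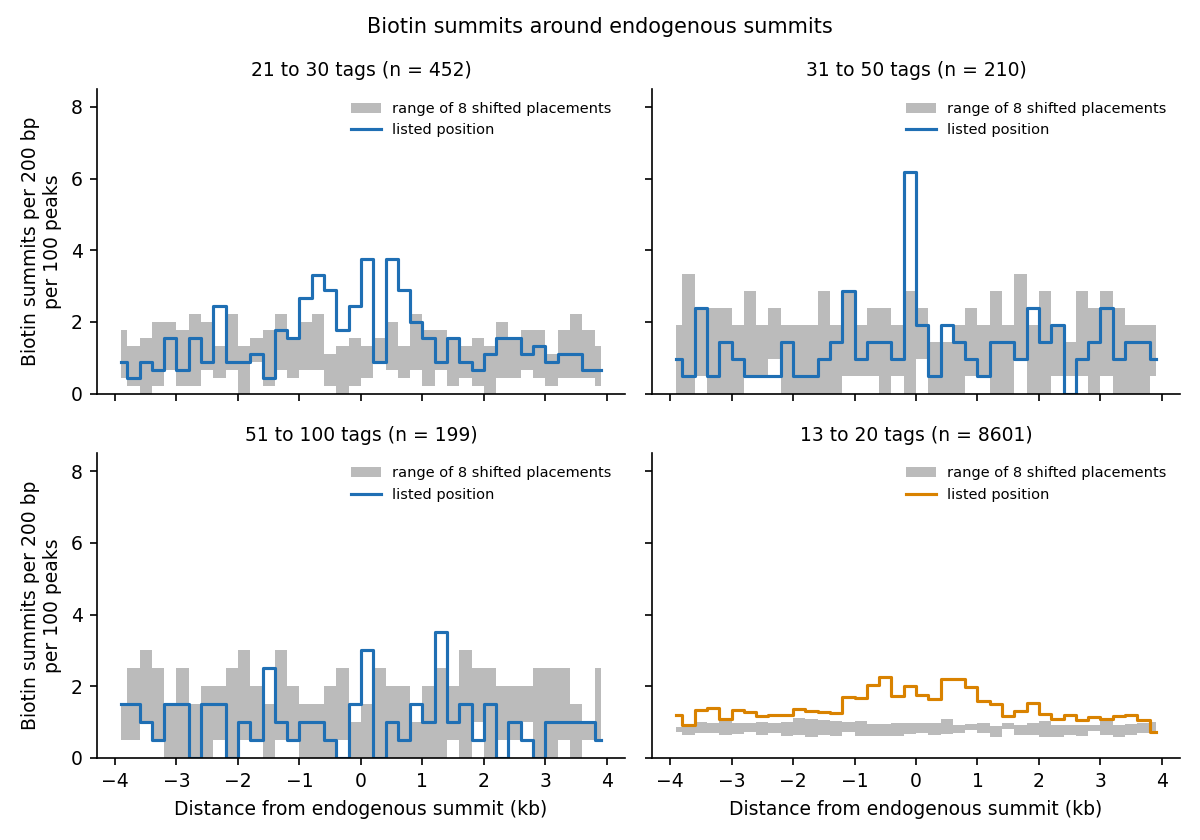
Biotin summits per 200 bp and 100 endogenous peaks (vertical axis) by distance from the endogenous summit in kb (horizontal axis), in 4 panels by tags, with the line for listed positions and the grey band for the range of 8 shifted placements. At 21 to 30 tags the line lies above the band within 800 bp, except at 200 to 400 bp. It also does so at −1000 to −800 bp and at −2400 to −2200 bp. At 51 to 100 tags it stays mostly inside the band. The exceptions are the 2 bins nearest the summit and a few farther out, the highest at 1200 to 1400 bp. At 13 to 20 tags the line lies above the band over most of the 4 kb, where 8601 peaks make the band narrow.

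Over the 207 overlapping peaks of 21 to 100 tags, the distance between the endogenous and the biotin summit had a median of 569 bp (195.5 to 889). The 5 sites named next were drawn only from the 56 peaks with a biotin summit within 250 bp, as those highest in both folds, so their close summits follow from that choice. At chr6:136951115-136952094 the endogenous peak had 60 tags (45.8 to 77.2) and a fold of 3.55, and its summit lay 10 bp from that of a biotin peak with a fold of 11.71. At chr6:114291190-114291938 the endogenous fold was 3.33 and the biotin fold 9.14, with summits 79 bp apart. The others were chr6:87406946-87408241, chr15:38806349-38807040 and chr19:61000078-61000889, with endogenous folds of 2.58, 3.13 and 3.73 and summits 144, 1 and 1 bp from the biotin summit. The last lay in a window with 13 biotin peaks and the first 4 in windows with 84 to 172.

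The biotin peaks under the 207 overlapping peaks of 21 to 100 tags were larger than most of their list. There were 200 of them, 0.134% of the biotin list on these chromosomes, with a median of 108.5 tags and a median fold of 5.00 (3.44 to 7.39), against 53 tags and a fold of 4.14 over all biotin peaks. Those under peaks of 13 to 20 tags had medians of 73 tags and a fold of 5.52. Within the tag range the biotin fold had medians of 5.86 at 21 to 30 tags, 4.47 at 31 to 50 and 3.46 at 51 to 100, while the biotin tags had medians of 98.5, 150.5 and 219. The biotin peaks under peaks of 21 to 100 tags were also wider, with a median of 1300.5 bp, against 1086 bp over all biotin peaks, and the part of width in these values was not tested.

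Where biotin peaks were sparse, the ratio of overlap to shifted positions was largest. Where a window of 1 Mb held 10 biotin peaks or fewer, 16 of 57 peaks of 21 to 100 tags overlapped one (28.1%, 17.0 to 41.5), against 0 to 3 after shifting. None of these 57 had a biotin summit within 250 bp (0 of 57, exact 95% interval up to 6.27%), against 0 to 2 after shifting. With 21 to 40 biotin peaks per Mb, 59 of 283 peaks of 21 to 100 tags overlapped one, against 15 to 29 after shifting. With over 80 per Mb, 59 of 205 overlapped one, against 47 to 57. The ratio of overlapping peaks to the shifted mean ran from 11.6 in the sparsest class to 1.09 in the densest, and for peaks of 13 to 20 tags from 11.8 to 1.03. At 21 to 100 tags the shifted mean rose from 2.41% to 26.3% between these classes, while the overlap share was 28.1% and 28.8%. The fall of the ratio thus lay in the shifted mean, which was only 1.375 peaks in the sparsest class. In each of the 5 density classes the share was higher at 21 to 100 tags than at 13 to 20 tags, by 3.79 to 10.98 points, with an interval above 0 in 2 of them, up to 10 and 41 to 80 per Mb.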

How the data were processed

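Peaks were listed by the authors for each precipitation separately. Per the submitters' processing notes, the build was mm9, and BWA 0.5.7 and R 2.15.2 are listed with no role. A peak caller, its control and its settings are not named there. The deposited files give tags as whole counts per peak, with no scaling to library size, per the file headers. They give a score of 10 times −log10 p, a fold enrichment as a linear ratio whose background is not stated, a false discovery rate in percent, and width and summit in bp, all the authors' own values per the file headers.

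Peaks on X, Y and random sequence were left out. Overlap meant at least 1 bp. Shifted positions were 8 fixed moves of all peaks, used as a description. Shares carry exact Clopper-Pearson intervals and differences Newcombe intervals at 95%. With 1 library per group nothing was tested across replicates. Named regions were those extreme in tags, fold, width or distance, the 5 highest by rank of both folds among those with a biotin summit within 250 bp, the fullest windows of 1 Mb and the longest runs. The peaks, classes and settings were chosen with earlier results of these data known. Genes and sequence were not used, because the reference at hand is of another build, GRCm38.p6. The overlap code was tested on simulated lists, and bedtools 2.31.1 gave the same 207 overlapping peaks. Python 3.11.15, numpy 2.4.6, pandas 2.3.3, scipy 1.17.1, statsmodels 0.14.6 and matplotlib 3.10.9 were used.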

Additional observations from a re-analysis of the deposited data

How the results depend on the processing

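Of 56 alternative values for 6 results, 22 stayed within the interval of the reported value, 32 moved and 2 reversed. For the ratio to shifted positions, the range over the 8 placements, 1.99 to 2.25, stood in for an interval and does not cover counting error. The overlap share, its difference from 13 to 20 tags and its ratio to shifted positions were reported as 24.0%, 5.85 points and 2.10. Summits within 250 bp gave 6.50%, 1.97 points and 2.68. A fold of 1 to under 3 gave 28.3%, 10.2 points and 2.60. With 31 to 100 tags they were 18.8%, 0.631 points and 1.48. For a fold of at least 2 the share was 18.4%, the ratio 1.49, and the difference reversed to −2.56 points (−7.82 to 3.18). With the biotin list limited to its 9612 strongest peaks by fold, the share was 2.32%, the ratio 2.39, and the difference reversed to −0.0722 points (−0.957 to 1.20). The share became 16.03% where the overlap had to reach 50% of the shorter peak, 33.8% within 1 kb, 20.7% with 600 bp windows and 14.2% with the stronger 50% of biotin peaks. The difference became 2.79 points with 600 bp windows and 2.01 with the stronger 50%. The ratio became 1.75 within 1 kb, 1.85 against shifts by 200 to 1000 kb and 2.34 with 21 to 50 tags. The median distance to a biotin peak, 4.24 kb, became 5.82 kb between summits, 6.77 kb with 31 to 100 tags and 14.2 kb to the stronger 50%. The share with a neighbour within 10 kb, 36.6%, became 27.6% within 5 kb, 57.6% within 50 kb, 19.4% for neighbours of 21 to 100 tags, 27.7% after merging and 32.1% without the 2 densest windows. The median width, 927 bp, became 1130 bp with 31 to 100 tags and 865 bp for a fold of at least 2. Settings without the 2 densest windows or with a fold of 1 to under 3 were chosen after seeing the data. Apart from fewer peaks, the cause was not tested. No paired analysis was possible because each group has 1 library, and no replicate could be left out. Unknown library depth and an unstated fold background limit every comparison of the lists.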

Other observations

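Peaks of 21 to 100 tags were also divided by width, and the difference between the width classes was not tested. Up to 700 bp wide, 79 of the 861 had a biotin peak in 9 cases (11.4%, 5.34 to 20.5), against 7 to 13 after shifting, whereas the 301 peaks over 700 and up to 900 bp wide had one in 77 cases (25.6%, 20.7 to 30.9), against 28 to 39. In this second class, where both tag ranges have many peaks, the share was 25.6% at 21 to 100 tags and 22.9% in 900 peaks of 13 to 20 tags, a difference of 2.69 points (−2.72 to 8.53). These width classes were drawn after the values had been seen.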
